A study of Mus musculus with 18 samples.

Results

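Transcripts of 10 genes that write, copy, protect or erase DNA methylation were followed in single mouse oocytes: Dnmt1, Uhrf1, Dnmt3a, Dnmt3b, Dnmt3l, Dppa3, Zfp57, Tet1, Tet2 and Tet3. The genes were taken by symbol, with earlier results of these data known, and are 10 of the 47069 genes in each deposited table. All 10 passed the filter on low counts, which left 12037 genes. Each library came from 1 oocyte of a wild type C57BL/6 mouse, sequenced by SMART-seq2, which copies polyadenylated RNA along its full length. There were 18 oocytes in 6 groups of 3. At 12 months of age the groups were metaphase II oocytes from in vitro maturation beside MSC (MSC-IVM-MII-12m), metaphase II oocytes matured in vitro without MSC (IVM-MII-12m) and germinal vesicle oocytes without MSC (GV-12m). The same 3 kinds were taken at 6 weeks (MSC-IVM-MII-6wk, IVM-MII-6wk and GV-6wk). The labels do not spell out MSC and name no animal, litter or culture, so a group of 3 oocytes counts as 1 sample here and groups are compared by size only, without a test. Each SD is over 3 oocytes and does not measure how animals vary.

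DNMT1 copies methylation to new DNA strands and is guided there by UHRF1, while DNMT3A, with its cofactor DNMT3L, lays down new methylation in the growing oocyte, maternal imprints included. DPPA3 and ZFP57 guard parts of that methylation after fertilization, and DPPA3 also keeps UHRF1 out of the oocyte nucleus. TET enzymes oxidize methylcytosine, and TET3 is the form known for acting in the zygote. A germinal vesicle (GV) oocyte is arrested before meiosis resumes, and a metaphase II oocyte has finished maturation; transcription is largely silent in between, and maturation draws on stored mRNA whose poly(A) tails lengthen or shorten.

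The transcript start sites of Dnmt3l and Dnmt1 are shown because these genes use separate starts in different cells, and the deposited tables hold a readout that bears on which transcripts were present. Each line is the 250 bases before an annotated start, from RefSeq (GRCm38.p6), read 5′ to 3′ on the strand of the gene, with the CG dinucleotides, the bases that DNA methylation enzymes act on, in capitals.
Dnmt3l-205 (chr10:78042037-78042286, plus strand): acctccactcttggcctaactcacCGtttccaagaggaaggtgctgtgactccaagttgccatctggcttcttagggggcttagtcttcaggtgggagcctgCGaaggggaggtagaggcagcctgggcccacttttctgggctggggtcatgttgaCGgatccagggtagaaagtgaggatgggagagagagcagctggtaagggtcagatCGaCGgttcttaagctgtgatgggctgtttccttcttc
Dnmt3l-201 (chr10:78049592-78049841, plus strand): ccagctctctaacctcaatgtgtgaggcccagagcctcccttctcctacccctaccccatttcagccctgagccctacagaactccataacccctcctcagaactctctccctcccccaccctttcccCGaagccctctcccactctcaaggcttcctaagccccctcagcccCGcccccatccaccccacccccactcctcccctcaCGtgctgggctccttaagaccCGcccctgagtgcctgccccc
Dnmt3l-202, Dnmt3l-203 and Dnmt3l-206 (chr10:78055085-78055334, plus strand): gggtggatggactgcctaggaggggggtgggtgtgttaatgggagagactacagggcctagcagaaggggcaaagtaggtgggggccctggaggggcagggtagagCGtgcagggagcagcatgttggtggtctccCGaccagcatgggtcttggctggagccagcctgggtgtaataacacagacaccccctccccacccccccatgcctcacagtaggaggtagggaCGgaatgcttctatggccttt
Dnmt1-202 (chr9:20959889-20960138, minus strand): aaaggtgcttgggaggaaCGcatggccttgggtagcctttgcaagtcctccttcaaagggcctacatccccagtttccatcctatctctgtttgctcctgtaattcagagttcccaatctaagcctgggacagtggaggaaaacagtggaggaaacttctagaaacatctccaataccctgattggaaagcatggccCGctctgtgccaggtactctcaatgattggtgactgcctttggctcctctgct
Dnmt1-201 (chr9:20952980-20953229, minus strand): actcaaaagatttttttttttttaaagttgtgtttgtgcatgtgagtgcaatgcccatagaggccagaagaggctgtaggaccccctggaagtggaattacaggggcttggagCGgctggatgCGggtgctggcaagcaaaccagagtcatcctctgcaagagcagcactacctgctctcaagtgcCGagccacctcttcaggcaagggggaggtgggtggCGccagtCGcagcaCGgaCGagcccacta
Dnmt1-203 (chr9:20952624-20952873, minus strand): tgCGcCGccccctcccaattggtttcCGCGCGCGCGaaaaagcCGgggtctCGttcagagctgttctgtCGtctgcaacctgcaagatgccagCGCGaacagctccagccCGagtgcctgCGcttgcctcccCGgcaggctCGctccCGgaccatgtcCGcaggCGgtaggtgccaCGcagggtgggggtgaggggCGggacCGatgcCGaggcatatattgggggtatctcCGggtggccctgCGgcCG
The Dnmt3l windows held 5, 4 and 3 CG in the order printed, and the Dnmt1 windows held 2, 7 and 26, against a median of 6 over the 32851 windows of the table. The start of Dnmt3l-205 lies within Aire, a neighbouring gene on the opposite strand, and in none of the exons of Aire. In mouse oocytes Dnmt3l is known to be transcribed from a start inside Aire, and Dnmt1 from a first exon upstream of the one used in somatic cells. None of the Dnmt3l windows held TATAAA or CCAAT on either strand, and 1 of them, that of Dnmt3l-201, held GGGCGG on either strand. The Dnmt1-202 window held CCAAT and that of Dnmt1-203 held both CCAAT and GGGCGG. Of all windows, 12.4% held TATAAA, 33.8% held CCAAT and 32.7% held GGGCGG; such matches describe letters and do not show binding. RefSeq windows matched 9 of the 10 genes, and Dppa3 had none.

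Libraries held 1914072 to 9193559 counts per oocyte. Markers of oocytes were present in every library, 12 to 14 of 14 with a count, and their sum ran from 3907 to 57016 CPM (counts scaled to the library total). Mitochondrially encoded genes took 0.92% to 14.9% of the counts and were higher in most metaphase II oocytes than in GV oocytes. GV-12m oocyte 3 stood apart by markers of cumulus and granulosa cells: 14 of 17 had a count and they summed to 2247 CPM, led by Inha at 917 CPM, while the remaining 5 GV oocytes had 62.3 to 236 CPM and the 12 metaphase II oocytes 0 to 72.5 CPM. In metaphase II oocytes the defining markers Foxl2, Fshr and Amh were at 0 in all 12. In GV oocytes they were at 0 in 3, 4 and 5 in that order, so their zeros alone do not tell the stages apart. Cyp19a1, another of the 17 markers, was at 0 in only 2 metaphase II oocytes. Its median was 26.5 CPM in metaphase II oocytes, with a highest value of 63.6 CPM, and 26.1 CPM in GV oocytes. Mesenchymal stromal markers summed to at most 30.3 CPM and blood and immune markers to at most 20.8 CPM in any oocyte. Thy1 and Ptprc were at 0 in all 18. By contrast, Fn1 (up to 20.2 CPM) and Cd68 (up to 13.7 CPM) were at 0 in no GV oocyte and in 3 and 4 metaphase II oocytes. Titles begin with 1 of 5 prefixes of unstated meaning; the ages share 0 of them, so age and prefix cannot be told apart. Mos is a kinase needed for arrest at metaphase II. It was at 643 CPM in MSC-IVM-MII-6wk oocyte 1 and 1261 CPM in IVM-MII-6wk oocyte 1, both of prefix Y01. Mos was at up to 12.1 CPM in the other 10 metaphase II oocytes and at 546 to 1973 CPM in the GV oocytes. In those Y01 metaphase II oocytes, oocyte markers summed to 20519 and 25090 CPM, against 3907 to 11348 CPM in the other 10. Their mitochondrial shares were 3.03% and 3.22%, against 6.04% to 14.9%. Whether they differed in stage from the other 10 was not tested. Per the labels, the nucleus was spun down and the library made from the supernatant, so RNA held in a GV nucleus may be missing; its part in the results was not tested.

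Compared per length, as deposited TPM (abundance scaled to transcript length and library total), the 10 genes spanned more than 4 orders of magnitude and kept much of their order from group to group. Dppa3 was the highest in every group, with a mean of 11208 ± 2677 TPM in MSC-IVM-MII-12m, 15883 ± 2250 TPM in IVM-MII-12m, 7930 ± 2853 TPM in GV-12m, 16176 ± 4275 TPM in MSC-IVM-MII-6wk, 13850 ± 3450 TPM in IVM-MII-6wk and 7574 ± 1937 TPM in GV-6wk oocytes. Zfp57 was second everywhere, with means of 560 to 830 TPM in the metaphase II groups and 154 ± 72.2 TPM in GV-12m and 242 ± 89.4 TPM in GV-6wk oocytes. The third place changed with the stage: Dnmt3a held it in the 4 metaphase II groups, with means of 79.2 to 181 TPM, and Dnmt3l held it in GV-12m (124 ± 27.9 TPM) and GV-6wk (241 ± 88.8 TPM). The place of Dnmt3a rests on a transcript length, averaged by estimated abundance, of 1923 to 2657 bases in the 18 oocytes. Its longest coding transcripts have 9685, 8737 and 5424 bases, and a longer average would give a lower TPM. Zfp57 was above Dnmt3a in each of the 12 metaphase II oocytes, and the ranges of mean ± SD touched in MSC-IVM-MII-6wk oocytes alone (643 ± 390 TPM for Zfp57 and 181 ± 138 TPM for Dnmt3a). The ranges of Zfp57 and Dnmt3l overlapped in both GV groups, at 242 ± 89.4 and 241 ± 88.8 TPM in GV-6wk oocytes. Those of Dnmt1 and Uhrf1, which work as a pair, overlapped in all 6 groups, with means of 39.2 to 57.6 TPM for Dnmt1 and 24.98 to 77.1 TPM for Uhrf1. Tet3 had means of 6.68 to 58.4 TPM. Its mean was above both of the pair in MSC-IVM-MII-12m oocytes, between them in MSC-IVM-MII-6wk oocytes and below both in the other 4 groups. In MSC-IVM-MII-12m oocytes Tet3 was at 6.69, 133.5 and 22.45 TPM, below both of the pair in oocytes 1 and 3. In MSC-IVM-MII-6wk oocytes it was at 144.2, 15.95 and 14.95 TPM, below both in oocytes 2 and 3. The averaged Tet3 length was 1378 to 6890 bases in the 16 oocytes with at least 20 counts, while its longest coding transcripts have 10904 and 5944 bases. Tet1 was eighth in all 6 groups, with means of 0.74 to 19.1 TPM. Dnmt3b and Tet2 had the lowest means, 0.367 to 1.60 TPM and 0.0167 to 1.02 TPM, and their ranges of mean ± SD overlapped in 5 of 6 groups.

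**Figure D1:**
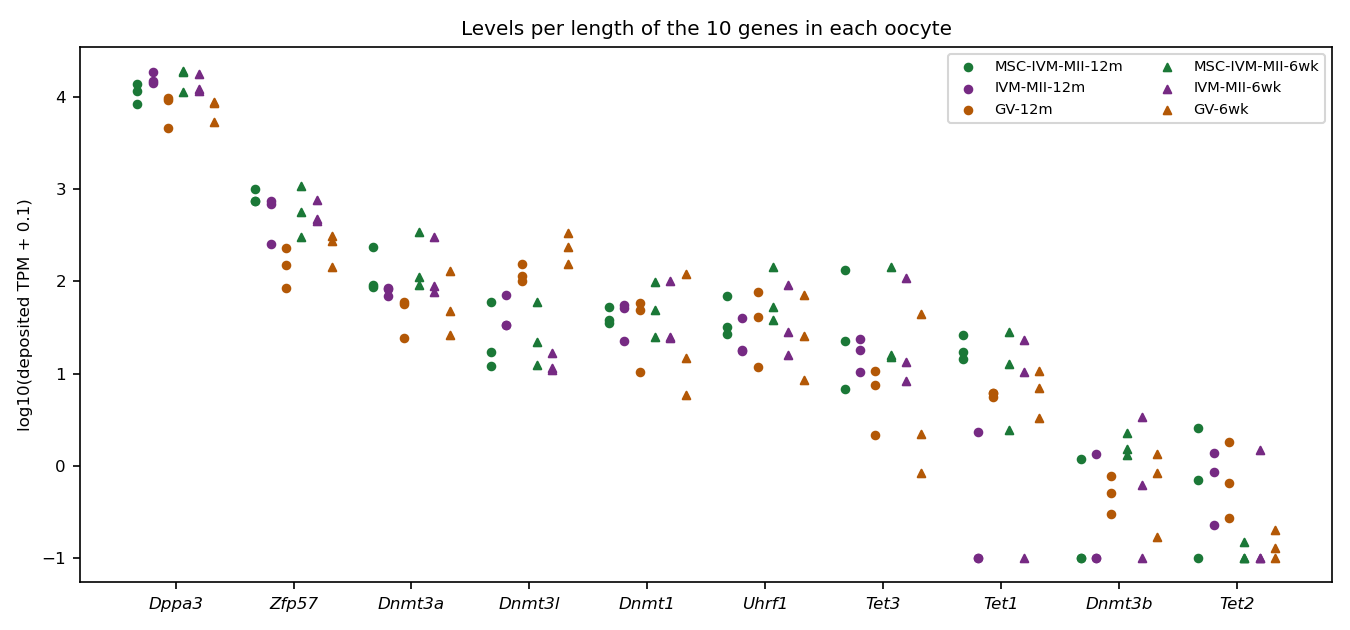
Deposited TPM of each gene in each of the 18 oocytes on a log10(TPM + 0.1) axis, with circles for 12m and triangles for 6wk, green for MSC-IVM-MII, purple for IVM-MII and orange for GV oocytes; points at the lower edge are at 0. Dppa3 is at 4646 TPM or more in every oocyte, while Dnmt3b and Tet2 stay at or below 3.32 TPM.

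Within a gene, CPM were compared between groups as the difference of mean log2(CPM + 1), first group minus second, and a difference of at least 1 or at most −1 was counted as past the fold. CPM are relative to the library, so higher and lower do not tell how much of a transcript an oocyte held, and amount of RNA and poly(A) tail length cannot be told apart in libraries primed on the tail. The 2 comparisons with GV oocytes at each age share the same GV oocytes, so their values are set side by side and are not independent.

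**Figure D2:**
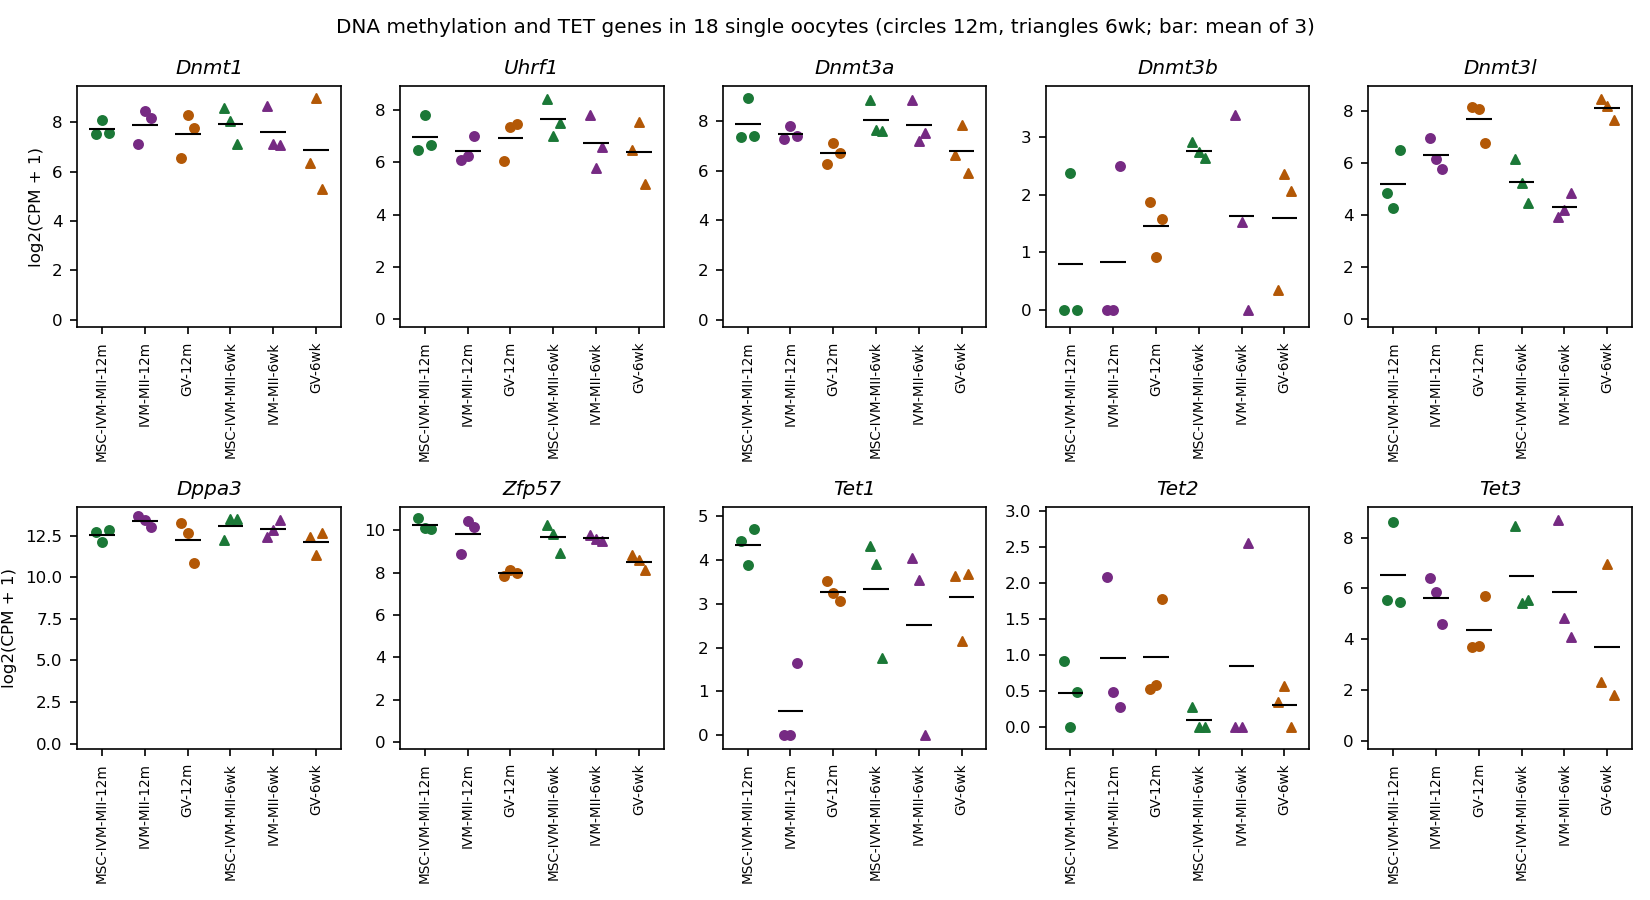
log2(CPM + 1) of each gene in each oocyte, by group, with the mean of 3 oocytes as a bar, circles for 12m and triangles for 6wk, green for MSC-IVM-MII, purple for IVM-MII and orange for GV oocytes. Zfp57 in all 12 metaphase II oocytes lies above all 6 GV oocytes, Dnmt3l lies below GV in most, and Tet1 is at 0 in 2 of 3 IVM-MII-12m oocytes.

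Dnmt3l, the cofactor without catalytic activity of its own, was the gene of the 10 most strongly lower in metaphase II oocytes at 6wk. It was at 70.1, 37.1 and 21.1 CPM in MSC-IVM-MII-6wk oocytes, at 14.2, 17.1 and 28.0 CPM in IVM-MII-6wk oocytes, and at 352, 291 and 201 CPM in GV-6wk oocytes. The lowest GV-6wk oocyte was thus above the highest of the 6 metaphase II oocytes of that age. The difference was −2.81 for MSC-IVM-MII minus GV at 6wk (6.58-fold lower) and −3.78 for IVM-MII minus GV at 6wk (14.2-fold lower). At 12m Dnmt3l was at 27.7, 18.6 and 89.9 CPM in MSC-IVM-MII-12m oocytes, at 125, 70.7 and 53.9 CPM in IVM-MII-12m oocytes, and at 287, 271 and 108 CPM in GV-12m oocytes. There the co-cultured oocytes lay below all GV oocytes (−2.46, 4.89-fold lower), and the oocytes without MSC overlapped them (−1.37, 2.66-fold lower), since IVM-MII-12m oocyte 1 was above GV-12m oocyte 3, the oocyte with granulosa cell markers. Without that GV oocyte the 2 values were −2.92 and −1.82. Between libraries of one title prefix Dnmt3l was lower as well, with differences of −2.17 and −2.80 for MSC-IVM-MII minus GV at 6wk (prefixes Y01 and Y03), −4.40 and −3.14 for IVM-MII minus GV at 6wk, −3.25 and −1.36 for MSC-IVM-MII minus GV at 12m (O04 and O05), and −1.51 and −0.98 for IVM-MII minus GV at 12m. Lower values are common in these comparisons, since 35.2% to 41.7% of all genes were at or below −1, and 6.9% to 31.6% of genes were lower still than Dnmt3l.

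The averaged length of the Dnmt3l transcripts also differed between the stages. The tables give each gene a transcript length averaged over its transcripts by their estimated abundance; the longest, Dnmt3l-205 with 1822 bases, starts inside Aire. In MSC-IVM-MII-6wk oocytes the averaged length was 1802, 1822 and 1822 bases, in IVM-MII-6wk oocytes 1822, 1683 and 1813 bases, and in GV-6wk oocytes 1604, 1294 and 1253 bases. In MSC-IVM-MII-12m oocytes it was 1822, 1811 and 1809 bases, in IVM-MII-12m oocytes 1719, 1822 and 1822 bases, and in GV-12m oocytes 1666, 1631 and 1731 bases. Of the 12 metaphase II oocytes, 10 thus had averages from 1802 to 1822 bases, and the 6 GV oocytes had averages from 1253 to 1731 bases. A length of 1822 bases leaves room for Dnmt3l-205 alone, while the GV-6wk lengths allow it at most 86.5%, 67.2% and 64.7% of the Dnmt3l transcripts. Every metaphase II oocyte had a longer average than every GV oocyte in 3 of the 4 comparisons with GV, all but IVM-MII minus GV at 12m. The same was true of 9.41% of genes for MSC-IVM-MII minus GV at 6wk, 8.87% for IVM-MII minus GV at 6wk and 10% for MSC-IVM-MII minus GV at 12m, among genes with at least 20 counts in each oocyte. The metaphase II averages rest on 55 to 1034 Dnmt3l counts and the GV averages on 567 to 2154. Dnmt3l shares 67 of its 2988 annotated exon bases with Aire, which was at 0 to 32.3 CPM, and SMART-seq2 does not mark the strand, so reads there cannot be assigned to either gene.

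**Figure D3:**
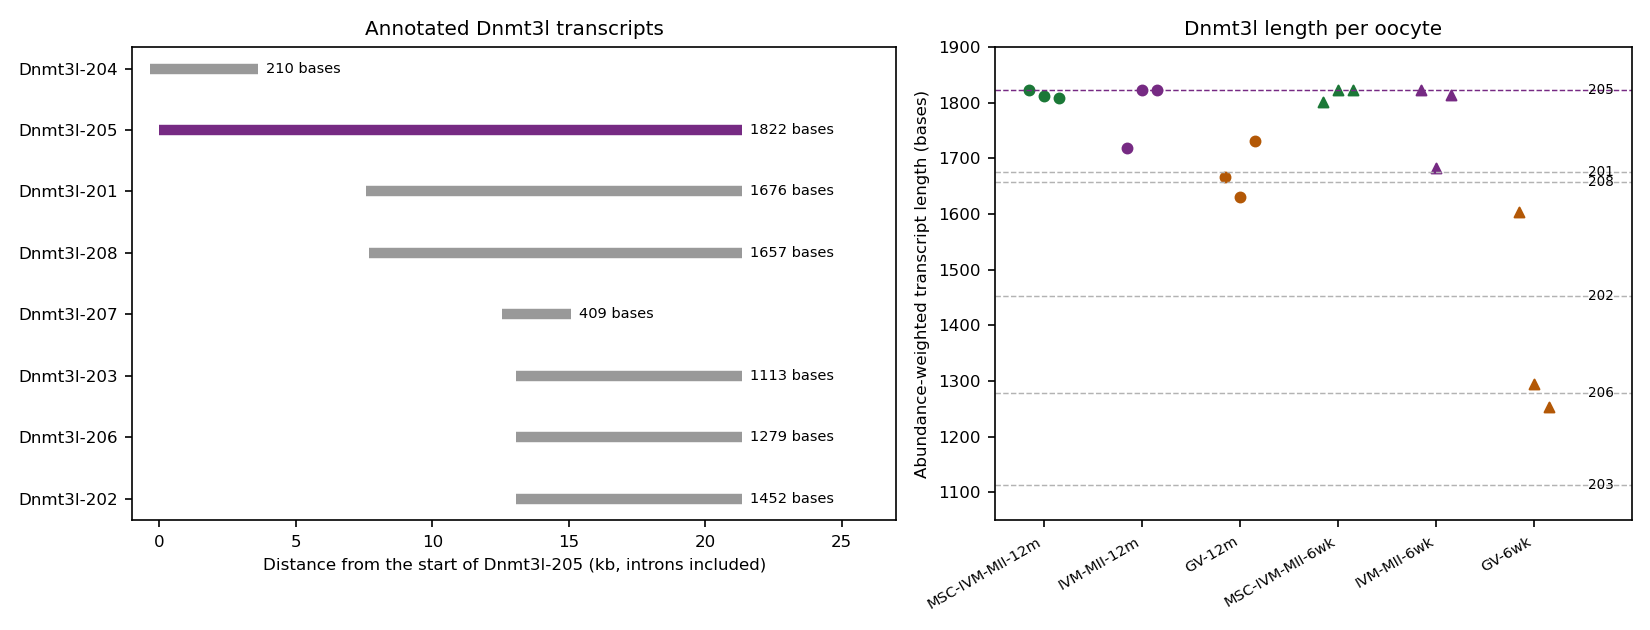
Left, the 8 annotated Dnmt3l transcripts from start to end in kb from the start of Dnmt3l-205 (purple), with their spliced lengths; right, the abundance-weighted transcript length of Dnmt3l in bases in each oocyte by group, with dashed lines at the lengths of its coding transcripts. The right axis does not start at 0; most metaphase II oocytes sit at the line of Dnmt3l-205 (1822 bases) and GV-6wk oocytes lie lowest, at 1253 to 1604 bases.

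Dnmt3a, the enzyme that DNMT3L assists, had the opposite sign. It was at 163, 479 and 168 CPM in MSC-IVM-MII-12m oocytes, at 153, 221 and 166 CPM in IVM-MII-12m oocytes, and at 75.5, 140 and 104 CPM in GV-12m oocytes. Both metaphase II groups lay wholly above the GV oocytes at 12m, by 1.19 with MSC and by 0.78 without; the difference with MSC was 0.68 without MSC-IVM-MII-12m oocyte 2 and 0.96 without GV-12m oocyte 1. Within title prefixes the difference with MSC was 0.22 (O04) and 1.44 (O05), and their average of 0.83 was under the fold. At 6wk Dnmt3a was at 464, 200 and 195 CPM in MSC-IVM-MII-6wk oocytes, at 458, 146 and 180 CPM in IVM-MII-6wk oocytes, and at 99.2, 227 and 58.9 CPM in GV-6wk oocytes. The 6wk groups overlapped, and their differences of 1.25 (MSC-IVM-MII minus GV) and 1.05 (IVM-MII minus GV) were 0.84 without MSC-IVM-MII-6wk oocyte 1 and 0.55 without IVM-MII-6wk oocyte 1. Without GV-6wk oocyte 3 they were 0.80 and 0.61, and without GV-6wk oocyte 1 that of IVM-MII was 0.98; with DESeq2 size factors it was 0.99. Dnmt3a shares 133 of 16642 exon bases with the antisense gene Dnmt3aos, which reached 14.9 CPM. Dnmt3b, the other de novo enzyme, was at 0 to 9.46 CPM, and in MSC-IVM-MII-12m and IVM-MII-12m oocytes 2 of 3 had no count. Its summed counts were 30 (exact Poisson 95% interval 20.2 to 42.8) in MSC-IVM-MII-12m, 22 (13.8 to 33.3) in IVM-MII-12m and 32 (21.9 to 45.2) in GV-12m oocytes, and 63 (48.4 to 80.6) in MSC-IVM-MII-6wk, 48 (35.4 to 63.6) in IVM-MII-6wk and 27 (17.8 to 39.3) in GV-6wk oocytes. The difference of 1.17 for MSC-IVM-MII minus GV at 6wk was past the fold and was 0.55 without GV-6wk oocyte 1. It was also under the fold as TPM (0.67), as the log2 ratio of mean CPM (0.95) and with a pseudocount of 5 (0.56). The intervals cover counting error only, because without molecular identifiers a read is not a separate molecule. A count of 0 allows up to 1.34 CPM in the shallowest MSC-IVM-MII-12m oocyte.

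Zfp57, the zinc finger protein that holds methylation at imprinted regions, was higher in metaphase II oocytes of both ages. It was at 1516, 1105 and 1073 CPM in MSC-IVM-MII-12m oocytes, at 463, 1375 and 1132 CPM in IVM-MII-12m oocytes, and at 225, 280 and 250 CPM in GV-12m oocytes. At 6wk it was at 1213, 901 and 479 CPM in MSC-IVM-MII-6wk oocytes, at 877, 768 and 712 CPM in IVM-MII-6wk oocytes, and at 449, 388 and 275 CPM in GV-6wk oocytes. The lowest of the 12 metaphase II oocytes (463 CPM) was above the highest of the 6 GV oocytes (449 CPM). By CPM, Zfp57 was the one gene of the 10 for which all 4 comparisons with GV showed no overlap. As deposited TPM, MSC-IVM-MII-6wk oocyte 3 (300.2 TPM) was below GV-6wk oocyte 2 (311.1 TPM). The differences were 2.27 for MSC-IVM-MII minus GV at 12m (4.89-fold higher), 1.83 for IVM-MII minus GV at 12m (3.93-fold), 1.15 for MSC-IVM-MII minus GV at 6wk (2.33-fold) and 1.1 for IVM-MII minus GV at 6wk (2.12-fold). Within prefixes O04 and O05 they were 2.43 and 2.12 with MSC and 1.51 and 2.17 without, and within Y01 and Y03 they were 1.54 and 1.25 with MSC and 1.07 and 1.42 without. The 6wk values were under 1 when GV-6wk oocyte 3 was left out (0.95 with MSC and 0.91 without MSC), and that with MSC was 0.85 when MSC-IVM-MII-6wk oocyte 1 was left out and 0.95 with DESeq2 size factors. Of all genes, 81.4% to 97.2% had a smaller difference than Zfp57.

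Dppa3, the most abundant of the 10, was at 6819, 4522 and 7311 CPM in MSC-IVM-MII-12m oocytes, at 13274, 11329 and 8303 CPM in IVM-MII-12m oocytes, and at 9765, 6544 and 1837 CPM in GV-12m oocytes. At 6wk it was at 4852, 11585 and 11834 CPM in MSC-IVM-MII-6wk oocytes, at 5539, 7357 and 11057 CPM in IVM-MII-6wk oocytes, and at 5454, 2583 and 6431 CPM in GV-6wk oocytes. Groups overlapped in all 4 comparisons with GV. The 1 difference past the fold, 1.14 for IVM-MII minus GV at 12m, was 0.43 without GV-12m oocyte 3, the oocyte with granulosa cell markers, and 0.99 without IVM-MII-12m oocyte 1. It was 0.91 with DESeq2 size factors and 0.86 as the log2 ratio of mean CPM. Dppa3-ps, an annotated copy of Dppa3, was listed at 0 in all 18 oocytes.

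Dnmt1 and Uhrf1, the maintenance pair, had a wide spread within groups. Dnmt1 was at 184, 275 and 189 CPM in MSC-IVM-MII-12m, at 136, 346 and 285 CPM in IVM-MII-12m and at 92.9, 314 and 218 CPM in GV-12m oocytes. In the 6wk groups it was at 384, 265 and 136 CPM in MSC-IVM-MII-6wk, at 226 ± 157 CPM, with a lowest oocyte of 134 CPM, in IVM-MII-6wk and at 79.8, 501.8 and 38.0 CPM in GV-6wk oocytes. The GV-6wk oocytes thus held both the highest and the lowest Dnmt1 value of all 18. Uhrf1 ran from 34.8 to 186 CPM over the 6 GV oocytes and from 54.0 to 340 CPM over the 12 metaphase II oocytes. For MSC-IVM-MII minus GV at 6wk the differences of 1.05 (Dnmt1) and 1.25 (Uhrf1) were past the fold; without GV-6wk oocyte 3 they were 0.26 and 0.64, and without MSC-IVM-MII-6wk oocyte 1 they were 0.72 and 0.86. That of Dnmt1 was also 0.79 without GV-6wk oocyte 1, 0.98 without MSC-IVM-MII-6wk oocyte 2 and 2.11 without GV-6wk oocyte 2. With DESeq2 size factors the Dnmt1 difference was 0.86. As a ratio of mean CPM, Dnmt1 was 1.27-fold higher in MSC-IVM-MII-6wk (262.0 ± 124 CPM) than in GV-6wk oocytes (206.5 ± 257 CPM), a log2 ratio of 0.34. The averaged Dnmt1 length stayed within 5277 to 5333 bases in all 18 oocytes. The transcript that starts farthest upstream, Dnmt1-202 with 5248 bases, made up at least 28.3% and at most 95.3% of Dnmt1 transcripts by these lengths, whatever the share of the others (5367 and 5870 bases).

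Tet3, the maternal TET enzyme, had positive differences in all 4 comparisons with GV, with wide spread. It was at 46.0, 388 and 43.6 CPM in MSC-IVM-MII-12m oocytes, at 83.7, 57.1 and 22.9 CPM in IVM-MII-12m oocytes, and at 12.0, 12.2 and 50.3 CPM in GV-12m oocytes. At 6wk it was at 354, 41.8 and 45.2 CPM in MSC-IVM-MII-6wk oocytes, at 409, 27.6 and 15.99 CPM in IVM-MII-6wk oocytes, and at 4.03, 124 and 2.48 CPM in GV-6wk oocytes. In 5 of the 6 groups, all but IVM-MII-12m, 1 oocyte was far above the others, and all 4 comparisons overlapped. The differences were 2.18 for MSC-IVM-MII minus GV at 12m, 1.25 for IVM-MII minus GV at 12m, 2.77 for MSC-IVM-MII minus GV at 6wk and 2.17 for IVM-MII minus GV at 6wk. Leaving out single oocytes moved them between 1.15 and 2.83, 0.85 and 1.9, 1.78 and 4.41, and 0.76 and 3.80 in that order; the lowest came without MSC-IVM-MII-12m oocyte 2, IVM-MII-12m oocyte 1, MSC-IVM-MII-6wk oocyte 1 and IVM-MII-6wk oocyte 1, and the highest without GV-12m oocyte 3 at 12m and GV-6wk oocyte 2 at 6wk. For IVM-MII minus GV at 12m the value was also under 1 without GV-12m oocyte 1 (0.91) or oocyte 2 (0.92). For IVM-MII minus GV at 12m the prefixes gave opposite signs, 2.41 (O04) and −1.1 (O05), with an average of 0.66.

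Tet1, the TET enzyme best known from embryonic stem cells and germ cells, was low and differed most with co-culture at 12m. It was at 20.5, 13.6 and 24.8 CPM in MSC-IVM-MII-12m oocytes, at 0, 0 and 2.12 CPM in IVM-MII-12m oocytes, and at 10.5, 8.42 and 7.42 CPM in GV-12m oocytes. The 3 groups did not overlap: IVM-MII-12m was the lowest and MSC-IVM-MII-12m the highest. Against GV-12m the differences were 1.05 with MSC (0.87 without MSC-IVM-MII-12m oocyte 3, 0.95 without GV-12m oocyte 3 and 0.95 with DESeq2 size factors) and −2.73 without MSC (−3.28 to −2.46 with single oocytes left out). Summed counts were 269 (exact Poisson 95% interval 237.8 to 303.1) in MSC-IVM-MII-12m, 10 (4.8 to 18.4) in IVM-MII-12m and 163 (138.9 to 190) in GV-12m oocytes. At 6wk Tet1 was at 18.8, 14.0 and 2.42 CPM in MSC-IVM-MII-6wk oocytes, at 15.3, 10.6 and 0 CPM in IVM-MII-6wk oocytes, and at 11.3, 3.41 and 11.7 CPM in GV-6wk oocytes, with overlap throughout. The averaged Tet1 length was 1102 to 1958 bases in the 12 oocytes with at least 20 counts. By these estimated lengths, full-length Tet1-201 and Tet1-206 (13986 and 14369 bases) could be at most 3.9% to 10.3% of the transcripts. The estimate gave the rest to shorter annotated ones such as Tet1-205 (1197 bases). It rests on 33 to 125 Tet1 counts an oocyte, and whether uneven coverage of long transcripts had a part was not tested. Tet2 was at 0 to 4.85 CPM in all 18 oocytes, from summed counts of 1 to 30 per group, and no order of its groups was readable at this depth.

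Counted together, the genes past the fold were as follows. For MSC-IVM-MII minus GV at 12m, 4 of 10 were higher (Dnmt3a, Zfp57, Tet1, Tet3), against 16.7% of all genes, and Dnmt3l was lower, against 41.7%. For IVM-MII minus GV at 12m, 3 were higher (Dppa3, Zfp57, Tet3), against 16.1% of all genes, and 2 were lower (Dnmt3l, Tet1), against 39.0%. For MSC-IVM-MII minus GV at 6wk, 6 were higher (Dnmt1, Uhrf1, Dnmt3a, Dnmt3b, Zfp57, Tet3), against 21.4%, and Dnmt3l was lower, against 35.2%. The 6 were 4 with DESeq2 size factors, without Dnmt1 and Zfp57, and 4 by the ratio of mean CPM, without Dnmt1 and Dnmt3b. For IVM-MII minus GV at 6wk, 3 were higher (Dnmt3a, Zfp57, Tet3), against 16.7%, and Dnmt3l was lower, against 39.3%. The medians of the 10 genes were 0.25, 0.17, 1.1 and 0.65 in this order, beside −0.60, −0.52, −0.29 and −0.52 over all genes. Genes of which every metaphase II oocyte was above every GV oocyte were Dnmt3a, Zfp57 and Tet1 for MSC-IVM-MII at 12m (10.9% of all genes), Dnmt3a and Zfp57 for IVM-MII at 12m (11.3%), Dnmt3b and Zfp57 for MSC-IVM-MII at 6wk (14.2%) and Zfp57 for IVM-MII at 6wk (9.59%). Those with every metaphase II oocyte below were Dnmt3l for MSC-IVM-MII at 12m (28.5% of all genes) and Tet1 for IVM-MII at 12m (26.2%). At 6wk it was Dnmt3l for MSC-IVM-MII (28.7%) and for IVM-MII (29.2%). These separations are by CPM. For MSC-IVM-MII at 6wk, deposited TPM overlapped for Dnmt3b (1.21 TPM in MSC-IVM-MII-6wk oocyte 3, 1.26 TPM in GV-6wk oocyte 2). Zfp57 overlapped there as well (300.2 and 311.1 TPM in the same oocytes).

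**Figure D4:**
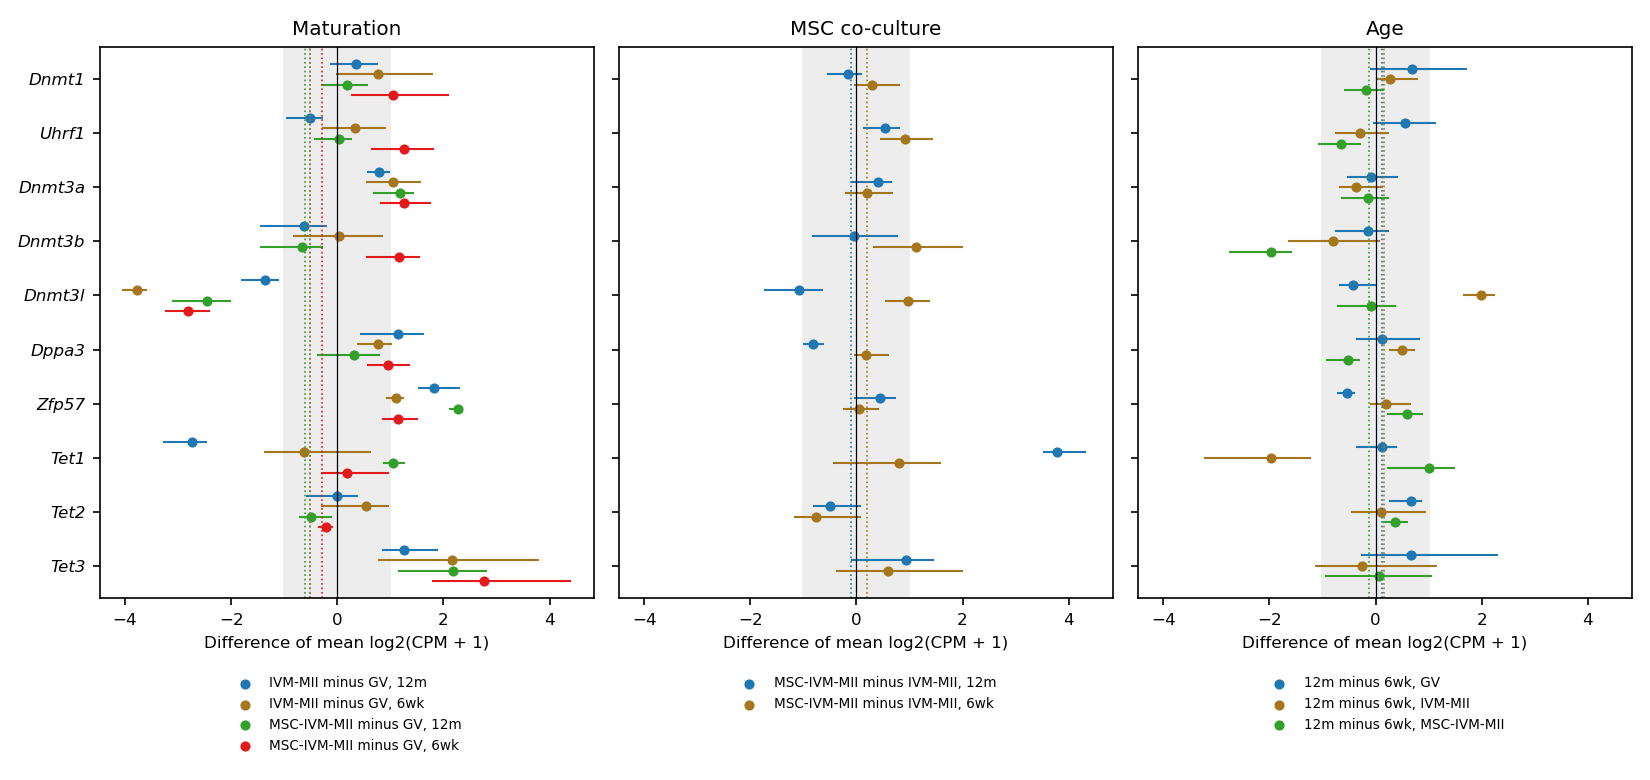
Difference of mean log2(CPM + 1) of the 10 genes in the comparisons by maturation, MSC co-culture and age (points), with the range over values that leave out 1 oocyte at a time (lines), the median of all genes (dotted lines) and the zone between −1 and 1 in grey. Dnmt3l lies left of −1 and Zfp57 right of 1 in all 4 maturation comparisons.

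The comparison of metaphase II oocytes matured with and without MSC addressed the effect of co-culture. At 12m, 1 of the 10 genes was higher past the fold (Tet1, against 10.3% of all genes) and 1 was lower (Dnmt3l, against 15.2%), with a median of 0.18 for the 10 and −0.10 for all genes. Tet1 was 3.78 higher (27.7-fold, 19.6 ± 5.62 CPM in MSC-IVM-MII-12m against 0.708 ± 1.23 CPM in IVM-MII-12m), and each of the 3 co-cultured oocytes was above each of the others, as held for 2.63% of genes. The value ran from 3.51 to 4.33 when single oocytes were left out and was 4.43 within prefix O04 and 2.63 within O05. Its size depends on the pseudocount, with 6.09 at 0.1 and 2.1 at 5, since 2 of the 3 oocytes without MSC had no Tet1 count. A count of 0 allows up to 0.363 CPM in IVM-MII-12m oocyte 1 and 0.601 CPM in its oocyte 2, at a floor of 3 counts. Dnmt3l was 1.09 lower in co-cultured oocytes and overlapped; the difference was −0.91 without MSC-IVM-MII-12m oocyte 1, −0.63 without its oocyte 2, −1.74 without its oocyte 3 and −0.76 without IVM-MII-12m oocyte 1. It was −0.98 with DESeq2 size factors, −0.92 with total counts, −0.87 as TPM and −0.86 as the log2 ratio of mean CPM. Dppa3 was lower in each co-cultured oocyte than in each oocyte without MSC (6217 ± 1489 CPM in MSC-IVM-MII-12m against 10969 ± 2505 CPM in IVM-MII-12m, a difference of −0.82), as held for 3.99% of genes, with −0.85 within prefix O04 and −0.53 within O05.

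At 6wk co-culture went with 1 gene past the fold, Dnmt3b (higher, against 16.2% of all genes), and none lower (against 5.22%). The Dnmt3b difference of 1.13 rests on 6.55, 5.68 and 5.18 CPM in MSC-IVM-MII-6wk oocytes, against 9.46, 1.86 and 0 CPM in IVM-MII-6wk oocytes. It was 0.31 without IVM-MII-6wk oocyte 3 and 2.0 without IVM-MII-6wk oocyte 1. The prefixes gave opposite signs, −0.47 (Y01) and 1.93 (Y03), with an average of 0.73, and the difference was 0.45 as TPM and 0.51 as the log2 ratio of mean CPM. No gene of the 10 separated the 2 groups in every oocyte, where 3.86% of genes did so upwards and 1.51% downwards. Tet1 and Dppa3, which separated them at 12m, differed by 0.81 and 0.19 at 6wk, and Dnmt3l by 0.97. Whether these differ from the 12m values was not tested. By the ratio of mean CPM, Dnmt3l was 2.17-fold higher with MSC and so past the fold, while Dnmt3b was under it. Within prefixes Dnmt3l differed by 2.23 (Y01) and 0.34 (Y03). Without both Y01 oocytes, an alternative chosen after the data were seen, 4 genes were at or above 1 (Uhrf1 1.06, Dnmt3b 1.93, Tet1 1.08, Tet3 1.01), against 22.5% of all genes. Tet2 was at −1.27, against 10.9% at or below −1, and this value rests on 17 counts in IVM-MII-6wk oocyte 3, with 0 in the others compared.

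The age comparison set 12m against 6wk oocytes of one kind. Among IVM-MII oocytes, Dnmt3l was higher at 12m (83.3 ± 37.3 CPM in IVM-MII-12m against 19.8 ± 7.27 CPM in IVM-MII-6wk, 4.22-fold, a difference of 1.99 that ran from 1.65 to 2.26 with single oocytes left out). All 3 IVM-MII-12m oocytes were above all 3 IVM-MII-6wk oocytes, as held for 6.24% of genes (no gene of the 10 was lower in every oocyte, against 2.37%), and 18.1% of genes were at or above 1. Tet1 was lower in IVM-MII oocytes at 12m (−1.97, against 9.08% of genes at or below −1), with overlap, and the value was −1.22 without IVM-MII-6wk oocyte 1 and −3.23 without IVM-MII-6wk oocyte 3. Among MSC-IVM-MII oocytes, Dnmt3b was lower at 12m in each oocyte (−1.97; 15.2% of genes were at or below −1 and 4.85% were lower in every oocyte), at 0, 4.17 and 0 CPM in MSC-IVM-MII-12m against 6.55, 5.68 and 5.18 CPM in MSC-IVM-MII-6wk. Dnmt3l differed by −0.08 between the ages there. No gene was past the fold upwards in MSC-IVM-MII oocytes (against 7.73%) or higher in every oocyte (against 2.94%), with Tet1 just under it, and none was past it in GV oocytes in either direction (against 9.46% and 4.28% of genes), nor higher or lower in every oocyte (against 3.67% and 3.51%). Dnmt3l in GV oocytes differed by −0.43 and Zfp57 by −0.53 between 12m and 6wk. In the GV oocytes, leaving out GV-6wk oocyte 2 gave Dnmt1 1.73, Uhrf1 1.14 and Tet3 2.30.

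Across single metaphase II oocytes several of the genes took the same extreme places, a pattern noticed after the values were seen and given without a test. MSC-IVM-MII-12m oocyte 2, MSC-IVM-MII-6wk oocyte 1 and IVM-MII-6wk oocyte 1 held the 3 highest values of 12 for Tet3 (388, 354 and 409 CPM, against 15.99 to 83.7 CPM in the other 9), for Dnmt3a (479, 464 and 458 CPM) and for Uhrf1 (224, 340 and 222 CPM). The same oocytes held the 3 lowest Dppa3 values (4522, 4852 and 5539 CPM). They differed in other respects: Mos was at 0.278, 643 and 1261 CPM and mitochondrially encoded genes took 11.4%, 3.03% and 3.22% of their counts. Among the 6 GV oocytes, GV-6wk oocyte 2 and GV-12m oocyte 3 held the 2 highest Tet3 and Uhrf1 values and the 2 lowest Dppa3 and Tet1 values. The share of all genes with the same oocytes in these places was not computed, so the pattern is not shown to be particular to these genes. The part of title prefix, other cells or depth in this pattern was not tested.

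Other genes of the same pathways were read from 4 lists of 76 genes in all. Of the lists in the order given here, 12 of 15, 16 of 18, 17 of 22 and 16 of 21 genes passed the filter on low counts, and the counts below cover all listed genes. Over the genes that passed the filter, 16.7% were at or above 1 and 41.7% at or below −1 for MSC-IVM-MII minus GV at 12m, 16.1% and 39.0% for IVM-MII minus GV at 12m, 21.4% and 35.2% for MSC-IVM-MII minus GV at 6wk, and 16.7% and 39.3% for IVM-MII minus GV at 6wk. Of 15 readers and other writers of methylation, 5 were at or above 1 and 5 at or below −1 for MSC-IVM-MII minus GV at 12m, 6 and 4 for IVM-MII minus GV at 12m, 8 and 2 for MSC-IVM-MII minus GV at 6wk, and 4 and 2 for IVM-MII minus GV at 6wk. Their medians were 0.31, −0.13, 1.07 and 0.62 in this order, beside the medians of all genes given above. Mbd4, a glycosylase that binds methylated DNA, was higher in metaphase II oocytes (26.03 ± 6.45 CPM in MSC-IVM-MII-12m and 12.4 ± 3.65 CPM in IVM-MII-12m against 5.01 ± 2.99 CPM in GV-12m oocytes), and Mbd3, a subunit of the NuRD complex, was lower (5.59 ± 6.12 CPM in MSC-IVM-MII-12m and 6.25 ± 5.42 CPM in IVM-MII-12m against 24.5 ± 13.8 CPM in GV-12m). Of 18 genes of imprint protection and histone partners, 6, 5, 7 and 6 were at or above 1 and 3, 2, 0 and 1 at or below −1 in the same order of comparisons, with medians of −0.02, 0.05, 0.85 and 0.09. Ctcf, the insulator protein of imprinted regions, differed by 2.11, 2.18, 2.80 and 2.33, and Ehmt1, a histone methyltransferase, by 1.74, 1.79, 3.11 and 3.25, in that order. For co-culture, Arid4a, an imprinting regulator, differed by 0.59 at 12m and 1.42 at 6wk, and Kdm2b, a histone demethylase that binds CpG islands, by −0.08 and 2.92.

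Of 22 TET partners and base excision repair genes, 17 of which passed the filter, 3, 1, 7 and 3 were at or above 1 and 10, 8, 4 and 5 at or below −1 for the comparisons with GV in the order just used, with medians of −0.70, −0.48, −0.07 and −0.52. In that order, 16.7%, 16.1%, 21.4% and 16.7% of all genes that passed the filter were at or above 1. At or below −1 were 41.7%, 39.0%, 35.2% and 39.3%. Xrcc1, the repair scaffold, was at 2.07 ± 2.33 CPM in MSC-IVM-MII-12m and 3.04 ± 5.09 CPM in IVM-MII-12m against 60.6 ± 36.3 CPM in GV-12m oocytes. Apex1, the endonuclease that cuts abasic sites, was at 25.2 ± 11.7 CPM in MSC-IVM-MII-12m and 29.1 ± 36.7 CPM in IVM-MII-12m against 124 ± 33.1 CPM in GV-12m oocytes, and Smug1, a uracil glycosylase, differed between co-cultured and other metaphase II oocytes by 0.95 at 12m and 0.52 at 6wk. The methyl donor cycle, which makes the methyl group that DNMT enzymes use, had 3, 1, 4 and 3 of 21 genes at or above 1 and 10, 11, 7 and 10 at or below −1, with medians of −0.71, −1.25, −0.14 and −0.53. Ahcy, which clears the by-product of methyl transfer, was at 2.03 ± 1.04 CPM in MSC-IVM-MII-12m and 0.775 ± 1.24 CPM in IVM-MII-12m against 22.2 ± 17.8 CPM in GV-12m oocytes. Tyms, the thymidylate synthase that shares the folate pool, differed by −5.69, −4.79, −5.90 and −6.77. With co-culture at 12m, 5 of the 21 were at or above 1 (10.3% of genes that passed the filter) and 0 at or below −1 (15.2% of those genes), with a median of 0.38 beside −0.10 for all genes. Among the 5 were Shmt2 (1.09, 118 ± 17.1 CPM in MSC-IVM-MII-12m against 56.9 ± 22.6 CPM in IVM-MII-12m) and Mthfd1 (1.08), both folate enzymes. At 6wk these genes differed by 0.22 and 1.70. The others of the 5 were low: Gnmt (2.98 against 0 CPM), Slc19a1 (3.15 against 0 CPM) and Ahcyl1 (7.07 against 0.468 CPM). With co-culture at 6wk, 3 of the 21 were at or above 1 (16.2% of genes that passed the filter) and 0 at or below −1 (5.22%). The median there was 0.17 beside 0.20 for all genes.

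**Figure D5:**
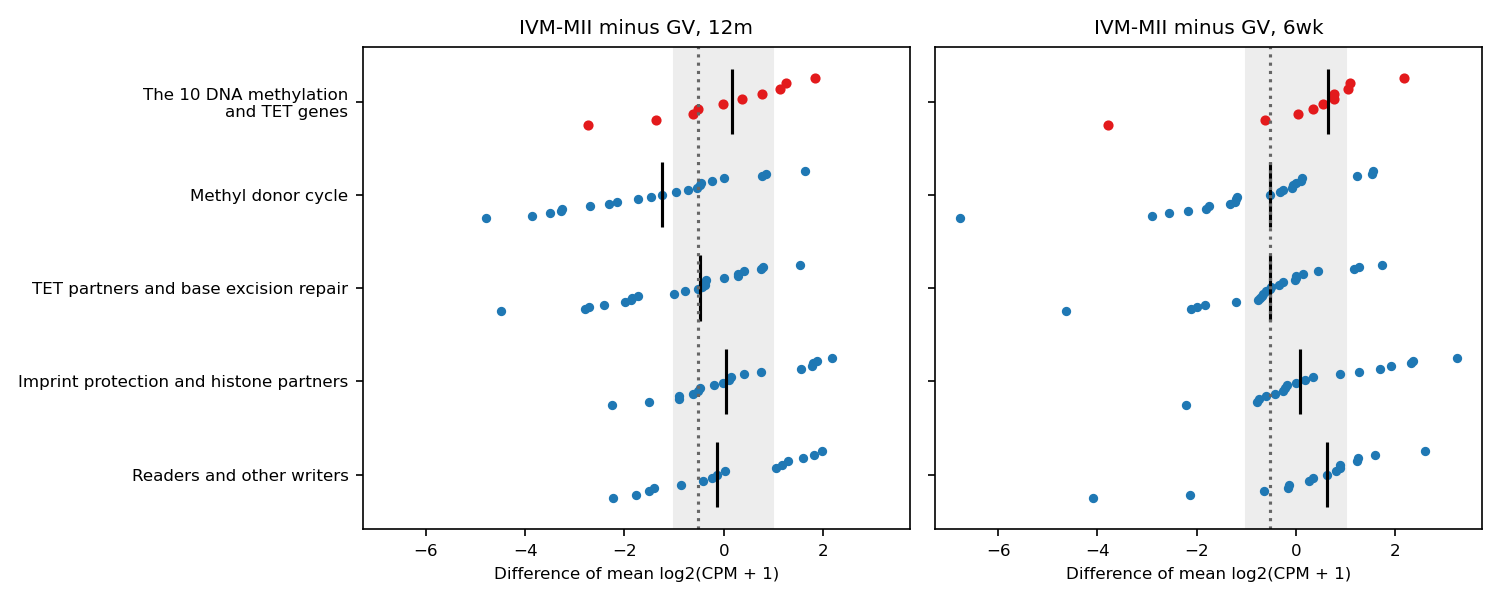
Difference of mean log2(CPM + 1) of every listed gene (blue) and of the 10 DNA methylation and TET genes (red) for IVM-MII minus GV at 12m (left) and 6wk (right), with the median of each list as a bar, the median of all genes as a dotted line and the zone between −1 and 1 in grey. The 10 genes have medians of 0.17 and 0.65, and the methyl donor cycle has medians of −1.25 and −0.53.

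The genes with the most similar profile over the 6 group means, by root mean square distance between centred log2(CPM + 1) values among genes with at least 20 CPM in a group, were Kcnn2 (0.14) and Uqcc1 (0.19) for Dnmt3l, E2f4 (0.066) and Mthfd2 (0.073) for Dnmt3a, and Gtpbp4 (0.11) and Rnf20 (0.12) for Zfp57. Those were Pcna (0.068) and Rttn (0.081) for Dppa3, Adam17 (0.084) and Npm3 (0.11) for Dnmt1, Car10 (0.14) and Sall4 (0.15) for Uhrf1, and Rbl1 (0.12) and Mbd4 (0.15) for Tet3.

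In GRCm38 coordinates (GENCODE M21) the genes, all protein coding, are Dnmt1 (ENSMUSG00000004099, chromosome 9, 20907209 to 20959888, minus strand), Uhrf1 (ENSMUSG00000001228, chromosome 17, 56303321 to 56323486, plus), Dnmt3a (ENSMUSG00000020661, chromosome 12, 3806007 to 3914443, plus), Dnmt3b (ENSMUSG00000027478, chromosome 2, 153649450 to 153687730, plus) and Dnmt3l (ENSMUSG00000000730, chromosome 10, 78041947 to 78063622, plus). The others are Dppa3 (ENSMUSG00000046323, chromosome 6, 122626410 to 122630272, plus), Zfp57 (ENSMUSG00000036036, chromosome 17, 37001163 to 37010635, plus), Tet1 (ENSMUSG00000047146, chromosome 10, 62804570 to 62908996, minus), Tet2 (ENSMUSG00000040943, chromosome 3, 133463679 to 133545139, minus) and Tet3 (ENSMUSG00000034832, chromosome 6, 83362373 to 83459084, minus).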

How the data were processed

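SMART-seq2 libraries of 18 single oocytes were used. Expected counts, TPM and FPKM per gene were deposited by the authors, per the file headers, in 1 table an oocyte; FPKM was not used. The deposited tables also hold, per the file headers, a transcript length and an effective length for each gene (other units, in bases). The length equals the plain mean of a gene's transcripts in 88.9% of values without a count and lies between its shortest and longest transcript in 98.1% of values, so it was read as an average weighted by estimated abundance. Builds mm10 and GRCm38.p5 and the tools TopHat2 2.1.1, Cufflinks, Trim Galore 0.4.5 and FastQC 0.11.8 come from the submitters' processing notes. The program that estimated the counts, and the annotation behind it, is not given in the sources used here. Such estimates can split reads shared by similar genes.

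Symbols came from GENCODE M21 and matched 46488 of 47069 gene identifiers. Expected counts were rounded, genes with few counts removed by filterByExpr and libraries scaled by TMM (edgeR 4.0.16, R 4.3.3), with a pseudocount of 1. Depth was 1914072 to 9193559 counts an oocyte, which limits precision for genes under a few CPM. Folds are ratios of mean CPM. No test was made, because the labels name no animal or culture. There were 9 comparisons. The members and lists were chosen with earlier results of these data known. Named companion genes had at least 20 CPM in a group and were the 2 with the largest differences by maturation and the 2 by co-culture in each list, averaged over ages. Alternatives were total counts, DESeq2 1.42.0 size factors, deposited TPM, no mitochondrial genes, pseudocounts of 0.1 and 5, the ratio of means, title prefixes and leaving out oocytes. The computation was tested on simulated counts. Python 3.11.15 did the rest.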

Additional observations from a re-analysis of the deposited data

How the results depend on the processing

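No paired analysis was possible because the replicate numbers follow accession order and so pair no oocytes; differences within shared title prefixes, whose meaning is not stated, are given in their place. Of 90 differences, 27 were past the fold. None of the 27 changed sign under another scaling or pseudocount, with 1 oocyte left out or as an average over title prefixes; within a single prefix 2 did, Tet3 for IVM-MII minus GV at 12m (−1.1 in O05) and Dnmt3b for co-culture at 6wk (−0.47 in Y01). Apart from leaving out oocytes, 11 of the 27 were under the fold in at least 1 alternative; their values stand beside the results, but for a pseudocount of 5, which gave Tet1 0.82 for MSC-IVM-MII minus GV at 12m, Dnmt3b 0.45 for co-culture at 6wk and Dnmt3b −0.82 for age in MSC-IVM-MII oocytes. For MSC-IVM-MII minus GV at 6wk, the genes at or above 1 numbered 4 with DESeq2 size factors or the ratio of means (6 in the text), against 18.3% and 22.1% of all genes. For IVM-MII minus GV, a pseudocount of 0.1 gave 2 genes at or below −1 at 6wk (1 in the text), against 49.5% of all genes. For MSC-IVM-MII minus GV at 12m it gave 3 (1 in the text), against 51.0%. The counts given here are not all that changed. For IVM-MII minus GV at 12m, Dppa3 went under the fold with DESeq2 size factors (0.91) or the ratio of means (0.86). At 6wk, Dnmt3a did so with DESeq2 size factors (0.99). In these settings 12.8%, 17.1% and 16.1% of all genes were at or above 1. For MSC-IVM-MII minus IVM-MII at 12m, the genes at or below −1 numbered 0 with total counts, DESeq2 size factors, TPM, a pseudocount of 5 or the ratio of means (4.49% to 14.4% of all genes). They numbered 2 with a pseudocount of 0.1 (25.9%), beside 1 in the text. Those at or above 1 numbered 2 with total counts, DESeq2 size factors or the ratio of means (11.4% to 12.6%), beside 1 in the text. The values of Tet3 and Dnmt3l in the text are 0.93 and −1.09. For MSC-IVM-MII minus IVM-MII at 6wk, the genes at or above 1 numbered 0 with TPM or a pseudocount of 5 (11.6% and 3.87% of all genes) and 3 with 0.1 (29.1%), beside 1 in the text. Those at or below −1 numbered 1 with 0.1 or the ratio of means (10.8% and 7.63%), beside 0 in the text. Without both Y01 oocytes, added after the data were seen, the genes at or above 1 and at or below −1 numbered 4 and 1 (22.5% and 10.9% of all genes). By age, a pseudocount of 0.1 gave 1 gene at or above 1 in GV oocytes (17.0% of all genes), beside 0 in the text. In IVM-MII oocytes a pseudocount of 0.1 gave 2 at or above 1 (28.8%) and 2 at or below −1 (16.0%), beside 1 each in the text. The ratio of means also gave 2 at or below −1 there (13.3%). In MSC-IVM-MII oocytes a pseudocount of 0.1 gave 2 at or above 1 (13.9%), beside 0 in the text. Total counts, DESeq2 size factors or no mitochondrial genes gave 1 there (7.97% to 9.11%). A pseudocount of 5 gave 0 at or below −1 in MSC-IVM-MII oocytes (4.38%), beside 1 in the text. The cause was not tested.

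With single oocytes left out, the counts at or above 1 and at or below −1 ran from 3 to 4 and 1 to 2 for MSC-IVM-MII minus GV at 12m, 1 to 3 and 2 to 3 for IVM-MII minus GV at 12m, 3 to 6 and 1 to 1 for MSC-IVM-MII minus GV at 6wk, 2 to 4 and 1 to 2 for IVM-MII minus GV at 6wk, 1 to 2 and 0 to 2 for co-culture at 12m, 1 to 4 and 0 to 1 for co-culture at 6wk, 0 to 3 and 0 to 0 for age in GV, 1 to 2 and 1 to 3 for age in IVM-MII, and 0 to 2 and 1 to 2 for age in MSC-IVM-MII oocytes. Medians of the 10 genes moved by less than the spread between oocytes. Of the single-gene alternatives, 11 moved by more than that spread, all with another pseudocount and all for Tet1, Tet2 or Dnmt3b. The median of all genes for IVM-MII minus GV at 12m was −0.68 with DESeq2 size factors, −0.35 with TPM and −0.52 in the text. Depth limits Dnmt3b, Tet1 and Tet2, whose group sums are 269 counts or fewer.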
